A study of Mus musculus with 5 samples.

Results

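The neurons described here were nuclei of the mouse central amygdala (CeA) that held transcripts of the red fluorescent protein mCherry in a library made from Htr2a-Cre mice. They numbered 290 of the 1265 nuclei of that library with a Gad1 or Gad2 transcript (22.9%, exact 95% interval 20.6 to 25.3%), of 6815 nuclei kept in all 5 libraries of the study. The labelled nuclei were chosen by their mCherry count alone, and a nucleus was called labelled when it held at least 2 unique molecular identifiers (UMIs, each standing for 1 captured RNA molecule) of mCherry, so that the mCherry level itself is not a result. Every nucleus compared also had 1500 to 8000 detected genes, under 0.5% of its UMIs from mitochondrial genes, and at least 1 UMI of Gad1 or Gad2, the enzymes that make the inhibitory transmitter GABA. The comparison group was the 857 nuclei (67.7%) with 0 mCherry UMIs, and the 118 nuclei (9.33%) with exactly 1 were set aside.

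Htr2a encodes the serotonin receptor 5-HT2A, which couples to Gq and phospholipase C and raises the excitability of many neurons. The CeA is built almost wholly of GABAergic neurons, which differ in their transcription factors, neuropeptides and peptide receptors and act in feeding, fear and pain. In a Cre line of this kind, a bacterial artificial chromosome with Htr2a regulatory sequence drives the recombinase, which turns over a reading frame that was delivered back to front (DIO) by an adeno-associated virus (AAV). The turn is permanent, so mCherry RNA marks infected cells in which Cre was active at any time from infection on. Htr2a RNA shows what the gene makes when the tissue is taken.

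Single-nucleus libraries were made from CeA microdissected from mice labelled C57BL6, which the methods give as C57BL/6NRj for wild-type mice and as a C57BL/6N background for transgenic ones, and each pooled 2 mice, a male and a female. Fed replicates 1 and 2 came from 8-week-old mice, and fasted replicates 1 and 2 from 8-week-old mice without food for 20 and 21 hours. The third fed library came from fed 12-week-old mice of the BAC transgenic line Htr2a-Cre that expressed AAV-DIO-mCherry, in which the EF1a promoter drives mCherry once Cre has acted. It is the only library with the label, so that genotype, virus, age and preparation cannot be told apart in any comparison of it with the other 4, and 1 library against 4 cannot give an exact permutation p below 0.2. Nuclei of 1 library are not replicates. Labelled and unlabelled nuclei are therefore compared without any test, and the intervals given cover counting error only.

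The Htr2a-Cre library held 19748116 UMIs in its Gad nuclei, against 8360730 to 28438517 in the other 4. mCherry and Cre transcripts were found only in the Htr2a-Cre library, and both stood at 0 UMIs in each of the others, which shared no barcode with it. The labelled nuclei held a median of 5 mCherry UMIs and at most 107. Of these nuclei, 60 held 2 UMIs, 68 held 3 or 4, 75 held 5 to 9, and 87 held 10 or more. Their median depth was 16735.5 UMIs and 4556.5 genes, deeper than the 13671 UMIs and 4089 genes of the unlabelled nuclei. Each nucleus was for this reason thinned at random to 4000 UMIs before genes were compared, which kept 287 labelled and 833 unlabelled nuclei. Free RNA in the droplets gives some nuclei transcripts of their neighbours, and among astrocyte-like nuclei, which a neuronal label should spare, 6 of 72 held an mCherry UMI (8.33%) and 1 of 72 held at least 2 (1.39%), at a median depth of 4537 UMIs.

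The labelled share differed between nuclei with and without a transcript from the Y chromosome. Of the 780 Gad nuclei with a UMI of a Y-linked gene, 17.8% were labelled (15.2 to 20.7%), against 31.1% (27.0 to 35.5%) of the 485 without one. The latter share was the higher in 15 of 16 neuron clusters. A Y-linked UMI was found in 47.9% of the labelled nuclei and 67.8% of the unlabelled. A male nucleus can lack such a UMI by chance, so the second group is a mixture. The cause of the difference was not tested.

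Over all Gad nuclei, the labelled nuclei showed no detectable excess of Htr2a RNA over the unlabelled nuclei. After thinning, the Htr2a level was 17.4 CPM (the UMIs of a gene scaled by all UMIs of the group) from 20 UMIs in the labelled nuclei and 20.7 CPM from 69 UMIs in the unlabelled, a log2 ratio of -0.25 with a counting interval of -1.05 to 0.49. An Htr2a UMI was found in 6.62% of the labelled and 6.60% of the unlabelled nuclei. Without thinning, the levels were 20.2 and 19.1 CPM, and the shares of nuclei were 21.4% (16.8 to 26.6%) and 14.9% (12.6 to 17.5%), with the labelled nuclei the deeper. The share in astrocyte-like nuclei was 6.94% without thinning. Along the number of mCherry UMIs the Htr2a level was 19.1 CPM at 0, 16.8 at 1, 11.9 at 2, 15.7 at 3 or 4, 24.0 at 5 to 9 and 24.8 at 10 or more, and the intervals of all 6 levels overlapped. The interval of the log2 ratio takes in a labelled level that is 2-fold lower and ends short of one that is 2-fold higher. Cre RNA itself was counted only 5 times, in 5 Gad nuclei, of which 1 was labelled, 3 held 1 mCherry UMI and 1 held none.

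The label was spread over many kinds of neuron and was unevenly shared among them. Clusters of the Gad nuclei of all 5 libraries were made with mCherry, Cre and Htr2a held out, and each is called here by the genes that lead it. Among clusters of at least 20 nuclei in the Htr2a-Cre library, the labelled share was highest in the cluster led by Drd3, a dopamine receptor gene, and Sema6d, at 41.9% of 43 nuclei (27.0 to 57.9%). Next came the cluster led by Vdr, the vitamin D receptor gene, at 41.7% of 48 (27.6 to 56.8%), and that led by Rin3 and Eya4 at 40.9% of 44 (26.3 to 56.8%). These 3 shares do not differ beyond their counting error. The share of the Drd3 cluster was 19.2% of its 26 nuclei with a Y-linked UMI and 76.5% of the 17 without, and among nuclei with a Y-linked UMI 6 clusters of at least 20 nuclei lay above it, those led by Rin3 (34.5%), Isl1 (31.8%), Vdr (30.8%), Prkd1 with Calcrl (27.8%), Rai14 (23.1%) and Vipr2 (21.6%). The cluster led by Isl1 and Zfp521, which carries the markers of CeM Il1rapl2/Tafa1 neurons of the medial division, was labelled in 36.3% of 124 nuclei (27.8 to 45.4%) and held the most labelled nuclei of any cluster, 15.5% of them. The CeC Calcrl/Drd2-like cluster of the capsular division gave 31.8% of 110 (23.3 to 41.4%), and the CeL Nts/Tac2-like cluster of the lateral division, led by Vipr2 and Dnah5, 31.2% of 80 (21.3 to 42.6%).

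At the other end of this order, the intercalated-like cluster, led by Chst9, Foxp2 and Tshz1, was labelled in 7.35% of 68 nuclei (2.43 to 16.3%). The cluster led by Prkcd, the gene of protein kinase C delta that marks a large class of CeA neurons, was labelled in 12.7% of 158 (7.91 to 18.9%), while the cluster with the highest Prkcd level gave 34.0% when clusters were cut finer, at a resolution of 1.2. Next came the cluster led by Synpo2 and Rarb, at 14.9% of 141 (9.46 to 21.9%). The clusters led by Tac1 and by Dach1 gave 5.00% and 10.0% of 20 nuclei each. The basolateral interneuron-like cluster, led by Moxd1, gave 20.0% of 30 (7.71 to 38.6%). Glia-like clusters among the Gad nuclei held 2 labelled nuclei of 70. In smaller clusters, 8 of 16 nuclei led by Rxfp2 and Gbx1 were labelled, and so were all 3 cholinergic nuclei led by Chat and 6 of 15 nuclei (40.0%) of the cluster led by Cst3 and Tgfbr1, which ribosomal genes also lead. At the resolution used, the intervals of the intercalated-like and Prkcd clusters lie below those of the Isl1, Vdr and Drd3 clusters, while most clusters between them overlap.

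**Figure D1:**
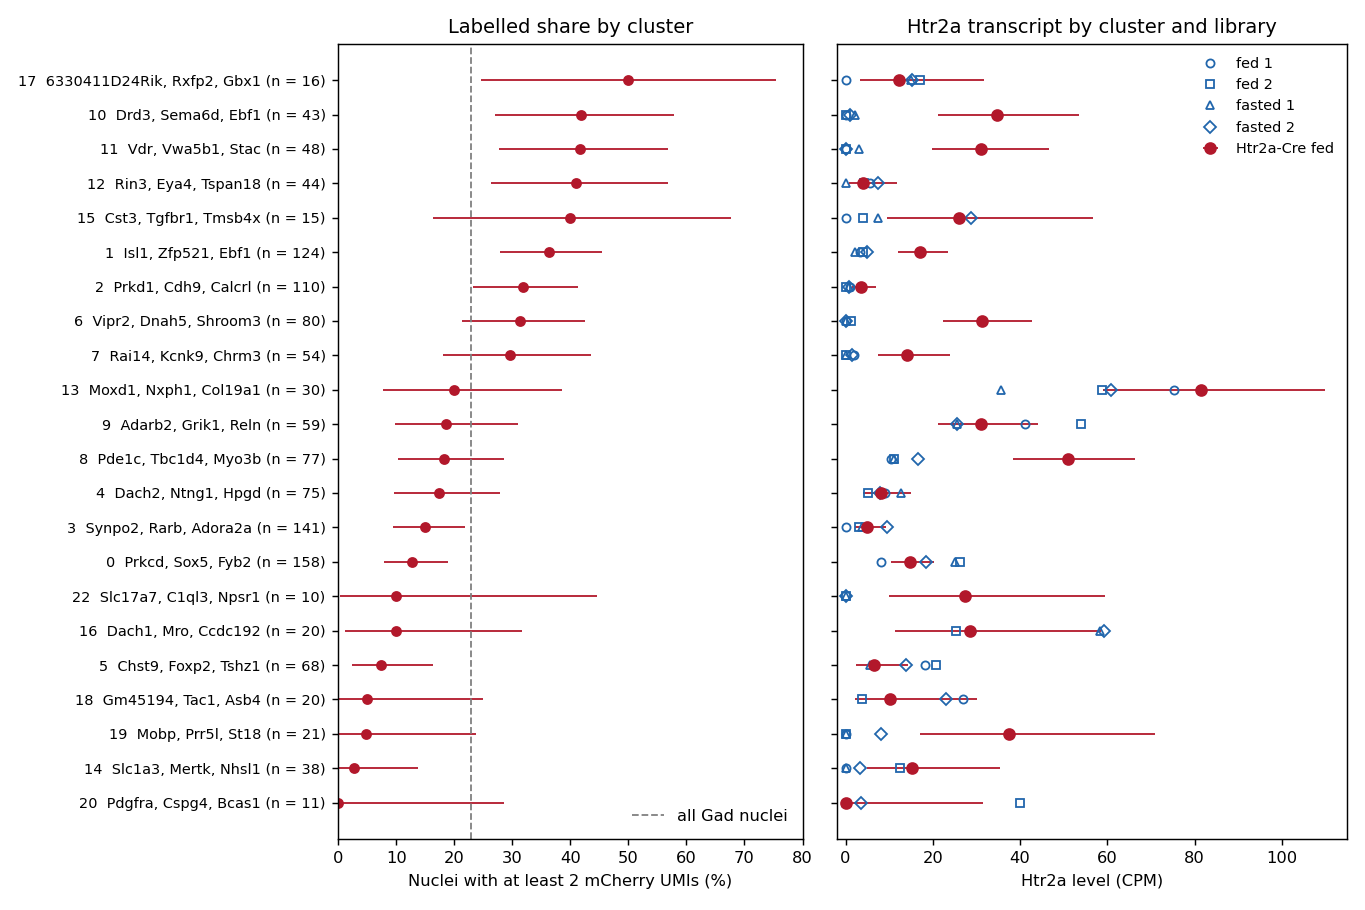
Left, share of Gad nuclei with at least 2 mCherry UMIs in each cluster of the Htr2a-Cre library with at least 10 such nuclei, with exact 95% intervals and the 22.9% of all Gad nuclei as a dashed line. Right, Htr2a level in CPM in the same clusters, with the Htr2a-Cre library in red with its counting interval and the other 4 libraries as open blue symbols, which lie at or near 0 in the Drd3, Vdr and Vipr2/Dnah5 clusters, where the red points lie between 31.1 and 34.7.

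The labelled share was lower in the clusters where the other libraries held more Htr2a RNA. Of the 16 neuron clusters with at least 20 nuclei, 8 had a mean Htr2a level under 5 CPM in the other 4 libraries, and their labelled shares ran from 14.9% to 41.9%, with a median of 34.1%. The 8 clusters at 5 CPM or more ran from 5.00% to 20.0%, with a median of 15%. Over all their nuclei the shares were 30.7% (27.2 to 34.5%) and 14.2% (11.3 to 17.5%). Across the 16 clusters the labelled share went with the other libraries' Htr2a level at Pearson's r = -0.52 and Spearman's rho = -0.66. The same measures against the Htr2a level of the Htr2a-Cre library itself were 0.04 and 0.22. These are descriptions over clusters that differ in size, and the last pair shares its nuclei and depth with the label. The line at 5 CPM was set with earlier results of these data known.

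Htr2a RNA in the Htr2a-Cre library was also found in clusters where the other 4 held little. In the 8 clusters at 5 CPM or more the level was 24.6 CPM in the Htr2a-Cre library and 22.1 ± 2.44 CPM (SD, n = 4 libraries) in the others, inside their range of 18.9 to 24.7. Among these 8, the cluster led by Pde1c lay above all 4 others, with 51.0 CPM (38.4 to 66.4) against 12.3 ± 2.81 and at most 16.5 in the others. In the 8 clusters under that line it was 14.7 CPM (12.5 to 17.3) against 1.95 ± 0.70. Inside the Htr2a-Cre library and without thinning, labelled nuclei of these 8 clusters held 20.3 CPM (15.8 to 25.6). The unlabelled nuclei held 12.6 CPM (9.90 to 15.8). In the 8 clusters at 5 CPM or more the order was reversed, with 19.4 CPM (12.4 to 28.9) in labelled and 24.8 CPM (20.9 to 29.2) in unlabelled nuclei. Over all Gad nuclei the level was 8.61 CPM in fed replicate 1, 12.0 in fed replicate 2, 9.15 in fasted replicate 1 and 12.6 in fasted replicate 2, and 19.1 CPM in the Htr2a-Cre library, above all 4. In the Prkcd cluster it was 14.7 CPM against 19.4 ± 8.4. In the basolateral interneuron-like cluster it was 81.5 CPM (59.0 to 110) against 57.6 ± 16.4. That too lay above all 4 others, which reached at most 75.3 CPM, a level inside the counting interval.

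The level was high against near 0 in 3 of the clusters with a high labelled share, those led by Vipr2 and Dnah5, by Drd3 with Sst, and by Vdr, which were singled out after their values were seen. The cluster led by Rin3 and Eya4, labelled in 40.9% of its nuclei, showed no such gap, at 4.03 CPM against 4.31 ± 3.17. In the 171 nuclei of the 3 clusters in the Htr2a-Cre library 83 Htr2a UMIs were counted, a level of 32.0 CPM (25.5 to 39.7). The 634 nuclei of the same clusters in the other libraries held 4 Htr2a UMIs in all. Their levels were 0 CPM in fed replicate 1, where a count of 0 allows up to 2.54, then 0.428 in fed replicate 2, 1.37 in fasted replicate 1 and 0.270 in fasted replicate 2. All 4 lay far below the Htr2a-Cre library. Inside it, the level was 43.6 CPM (31.7 to 58.5) in the labelled nuclei of these clusters and 26.2 CPM (18.2 to 36.6) in the unlabelled, and the intervals overlap. It was 28.6 CPM in nuclei with a Y-linked UMI and 36.0 CPM in those without. Gating on at least 3 UMIs of Dnah5 in place of the clusters gave 22.9 CPM against 3.02 ± 2.41, a smaller gap in the same direction.

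Htr2a lies on chromosome 14 (GRCm39, chr14:74877344-74946934, plus strand). Its neighbour Lrch1, 44.9 kb from it, was at 208 CPM in these clusters against 209 ± 8.89 in the other libraries, and Esd, 22.8 kb from it, at 12.0 against 7.82 ± 3.59. In these clusters both neighbours lay within the range of the other libraries. Over all Gad nuclei Esd was at 13.4 CPM, above the 5.91 to 12.3 CPM of the others, and Lrch1 at 232 CPM against 232 ± 15.4. Outside neurons, glia-like clusters held 14 Htr2a UMIs in the Htr2a-Cre library, 20.4 CPM (11.1 to 34.2), against 5.58 ± 8.45 CPM in the others, where fed replicate 2 alone reached 17.9 CPM. The genotype, virus, age and preparation of the Htr2a-Cre library cannot be told apart in these values, and a 3′ count does not tell a transcript of the resident gene from one of any further copy.

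By label, 6823 genes other than mCherry reached 20 CPM in at least 1 group, and 18 of them (0.264%) were at least 2-fold higher in the labelled nuclei and 64 (0.938%) at least 2-fold lower. Among the 18 was Ebf1, a transcription factor gene known from the differentiation of striatal neurons. Ebf1 was at 422 CPM in labelled and 186 CPM in unlabelled nuclei, a log2 ratio of 1.19 (1.01 to 1.36), and was found in 55.9% against 42.0% of nuclei before thinning. Its level climbed along the number of mCherry UMIs, from 205 CPM at 0 to 224 at 1, 306 at 2, 352 at 3 or 4, 439 at 5 to 9 and 474 at 10 or more. Part of this went with the mix of clusters. When the unlabelled nuclei were weighted to the clusters of the labelled ones, the log2 ratio of Ebf1 was 0.52.

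Isl1, a LIM-homeobox transcription factor gene that leads the Isl1 cluster, was at 24.4 against 11.4 CPM, a log2 ratio of 1.10 (0.34 to 1.84). Nefm, the gene of the medium neurofilament chain, was at 34.8 against 14.7 CPM, a log2 ratio of 1.24 (0.60 to 1.88), and was found in 28.3% of labelled and 14.4% of unlabelled nuclei before thinning. Weighting by cluster left it at 0.99. A pair of peptide receptor genes stood 2-fold higher. Tacr3, the receptor for neurokinin B, had a log2 ratio of 1.24 (0.43 to 2.03) from 26 and 32 UMIs, and Oprk1, the kappa opioid receptor, 1.09 (0.29 to 1.88) from 25 and 34. Without thinning, Isl1, Tacr3 and Oprk1 were under 2-fold, and Ebf1 was just under, at a log2 ratio of 0.99. Weighting by cluster left Isl1 at 0.55, Tacr3 at 0.57 and Oprk1 at 0.79, all under 2-fold.

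Other genes on this side rested on a few nuclei. Npsr1, the neuropeptide S receptor gene, had the largest log2 ratio, 2.07 (1.32 to 2.83), from 34.0 and 8.10 CPM. Before thinning, 3 labelled nuclei held 57.1% of its UMIs, and its level along the mCherry count had no order, with 55.3 CPM at 2 UMIs, 4.13 at 3 or 4 and 73.9 at 10 or more. Npsr1 also leads the excitatory-like cluster, which held 1 labelled nucleus. Kit, the receptor of stem cell factor, had a log2 ratio of 1.71 (0.85 to 2.59), and 3 nuclei held 44.3% of its labelled UMIs. Pde3a, a cyclic nucleotide phosphodiesterase gene and a leading gene of the Chat cluster, had 1.42 (0.74 to 2.11), and 3 nuclei held 49.0%. Without those 3 nuclei the labelled level of Pde3a was 18.8 CPM. Of the microglia markers, Cx3cr1, Csf1r and C1qa were each found in 0.348% of the labelled nuclei after thinning. All 18 genes had the same sign in nuclei with and without a Y-linked UMI, but several were past 2-fold in only 1 of these sets. Pde3a stood at 2.15 with and 0.12 without a Y-linked UMI, Isl1 at 1.72 and 0.24, Kit at 0.67 and 1.90, and Oprk1 at 0.34 and 1.91.

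**Figure D2:**
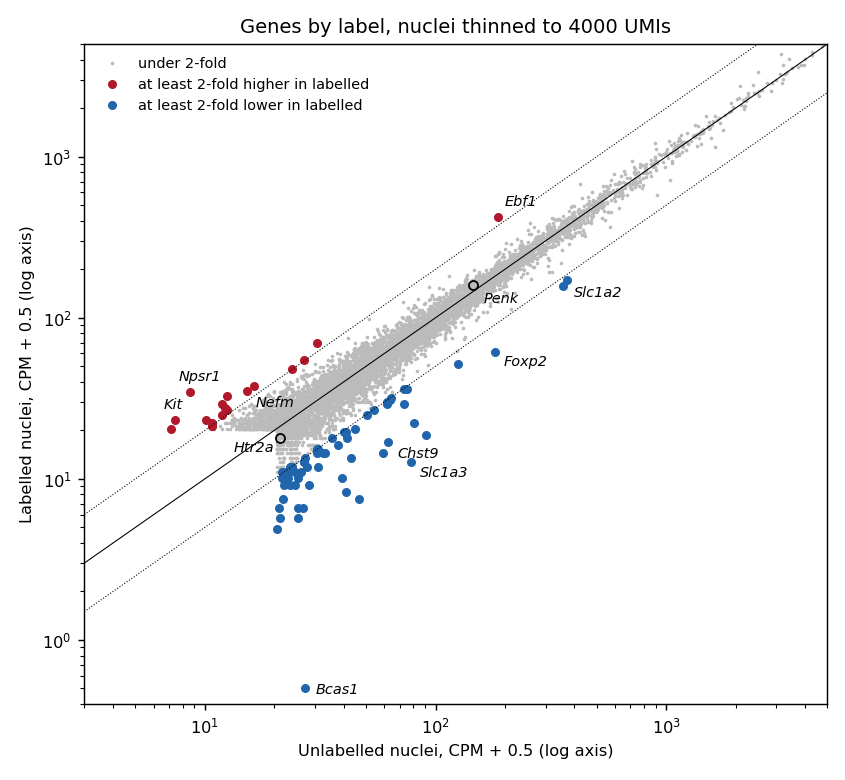
Level of each of the 6823 genes in unlabelled (x) and labelled (y) nuclei after thinning to 4000 UMIs, in CPM plus 0.5 on log axes, with the solid line at equal levels and the dotted lines at 2-fold. Red points are the 18 genes at least 2-fold higher in labelled nuclei, blue points the 64 at least 2-fold lower, and open black rings mark Htr2a and Penk, which lie between the dotted lines.

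**Figure D3:**
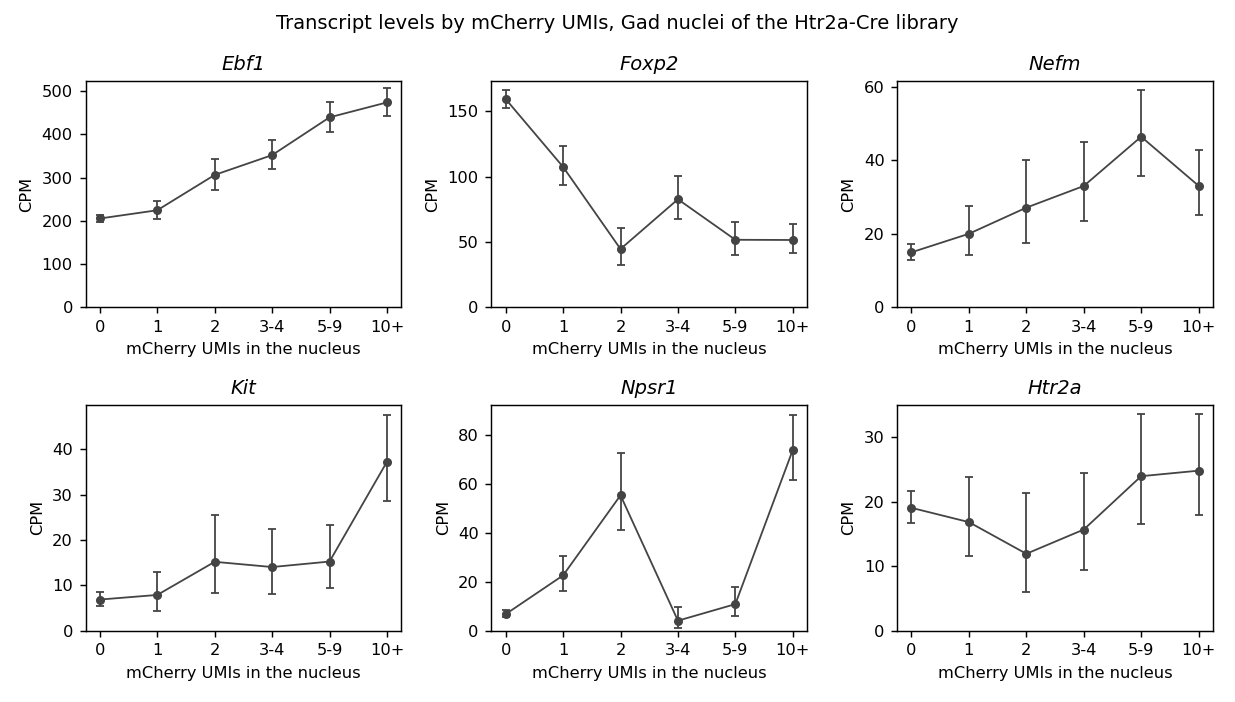
Level in CPM (y) of Ebf1, Foxp2, Nefm, Kit, Npsr1 and Htr2a without thinning, by the number of mCherry UMIs in the nucleus (x), in the Gad nuclei of the Htr2a-Cre library, with exact counting intervals. Ebf1 climbs from 205 to 474 CPM, Foxp2 falls from 159 to 51.4, and Htr2a stays between 11.9 and 24.8.

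The genes lower in labelled nuclei included some markers of intercalated neurons and of glia. Foxp2, a forkhead transcription factor gene that marks intercalated neurons, was at 61.0 CPM in labelled and 181 CPM in unlabelled nuclei, a log2 ratio of -1.57 (-1.95 to -1.21). Along the mCherry count it was 159 CPM at 0, 107 at 1, 44.5 at 2, 82.6 at 3 or 4, 51.6 at 5 to 9 and 51.4 at 10 or more. Chst9, a sulfotransferase gene that leads the intercalated-like cluster, had a log2 ratio of -1.90 (-2.66 to -1.22), and Tshz1, a zinc-finger gene of the same neurons, -1.05 (-1.62 to -0.52). Weighted by cluster, Foxp2 stood at -0.49 and Chst9 at -0.26. The 4 intercalated markers summed to 200 CPM in labelled and 342 CPM in unlabelled nuclei, a gap that Foxp2 mostly carried. The other members of that list besides Foxp2 and Tshz1 were not lower, with log2 ratios of 0.11 (-0.21 to 0.43) for Oprm1 and 0.47 (-0.78 to 1.62) for Drd1.

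Astrocyte genes were also lower. Slc1a3, which encodes a glial glutamate transporter, had a log2 ratio of -2.68 (-3.57 to -1.91), Mertk, a phagocytic receptor gene, -2.72 (-3.96 to -1.71), and Nfia, a transcription factor gene of glia, -2.31 (-3.02 to -1.67). The 5 astrocyte markers summed to 193 CPM in labelled against 533 CPM in unlabelled nuclei, with Slc1a2 the most abundant at 156 and 358 CPM, a log2 ratio of -1.20. Weighted by cluster, Slc1a3 stood at -0.15 and Nfia at -0.30, while Mertk remained past 2-fold at -1.13, and without the glia-like clusters and the cluster led by Cst3, Slc1a3 was at 0.60 and Mertk at 0.30, both turned in sign. The oligodendrocyte precursor markers summed to 21.8 against 82.2 CPM, and Bcas1 among them had 0 UMIs in labelled nuclei and 89 in the unlabelled. With 3 counts put in place of the 0, the gap would be 10.2-fold, a figure that leaves out the error of the unlabelled count. The upper end of its exact interval, a log2 ratio of -3.03, allows a smaller gap. Before thinning, Bcas1 had 7 UMIs in labelled nuclei and 233 in the unlabelled, of which 1 nucleus held 82 and 3 nuclei held 52.4%. Without the same clusters, 26 genes were at least 2-fold lower, 22 of them among the 64, and 20 were higher, 16 of them among the 18. The Y-linked Uty and Ddx3y were also among the 64. Dnah5, an axonemal dynein gene of CeL Nts/Tac2 neurons, was at 30.5 against 63.0 CPM, a log2 ratio of -1.05 (-1.61 to -0.53), although its cluster had a high labelled share. Without thinning Dnah5 was at 46.3 against 63.8 CPM, a log2 ratio of -0.46 and under 2-fold. Weighted by cluster, Dnah5 stood at -1.42, past 2-fold.

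No neuropeptide gene that was measured stood 2-fold apart by label over all Gad nuclei. Of 35 neuropeptide precursor genes, 6 reached 20 CPM, and their median log2 ratio was 0.07, against 0.00 over all genes measured. Penk, which gives the enkephalins, was at 159 CPM in labelled and 145 CPM in unlabelled nuclei, a log2 ratio of 0.13 (-0.12 to 0.38). Pdyn, which gives the dynorphins, was at 22.6 and 13.5 CPM, 0.75 (-0.01 to 1.47), and Nts, which gives neurotensin, at 20.9 and 13.2 CPM, 0.66 (-0.12 to 1.41). Sst, which gives somatostatin, was at 27.0 and 32.7 CPM, -0.28 (-0.90 to 0.31), but its log2 ratio was -1.66 in nuclei with a Y-linked UMI and 0.51 in those without. Over all Gad nuclei, all 4 intervals held 0. The other peptides of interest were below 20 CPM in both groups. Tac2 had 18 and 48 UMIs in labelled and unlabelled nuclei, Tac1 10 and 27, Crh 4 and 9, Pnoc 3 and 9, and Cartpt 2 and 20. Ghsr, the ghrelin receptor gene, had 0 UMIs in both, which at 3 counts allows levels of up to 2.61 and 0.900 CPM. The intervals of Crh (-1.78 to 2.21), Pnoc (-2.57 to 1.95) and Cartpt (-4.93 to 0.26) reach past 2-fold, so that even larger differences in these scarce peptides were not detectable at this depth.

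**Figure D4:**
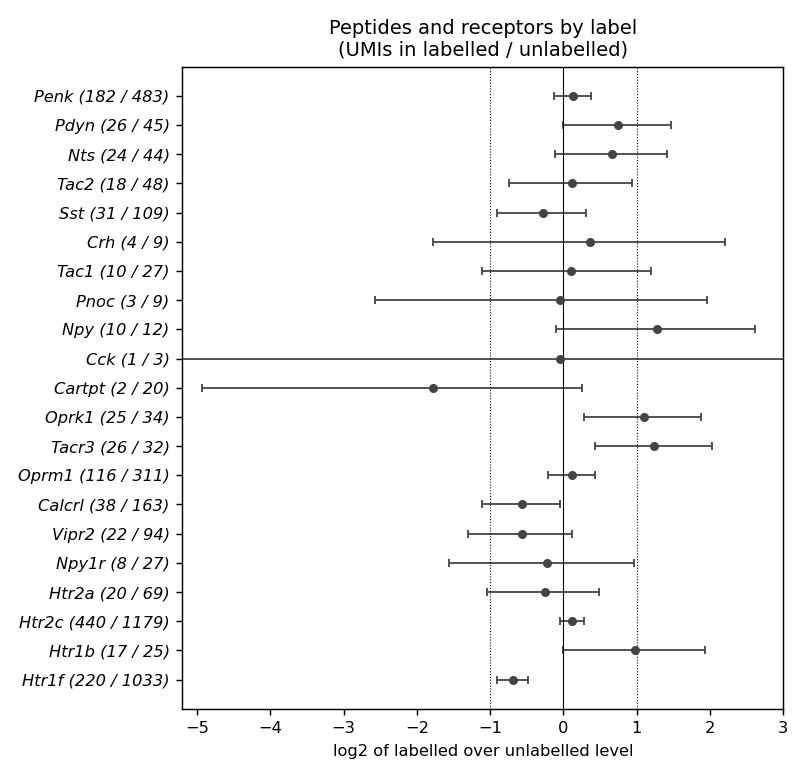
Log2 ratio of the labelled over the unlabelled level (x) for peptide and receptor genes (y) after thinning, with exact counting intervals, and beside each gene its UMIs in labelled and unlabelled nuclei. Dotted lines mark 2-fold, and the interval of Cck, with 1 and 3 UMIs, runs past the axis. Oprk1 and Tacr3 lie at or beyond the upper dotted line with intervals above 0.

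Among the receptors, the 13 peptide receptor genes measured had a median log2 ratio of -0.09, with Oprk1 and Tacr3 higher and none 2-fold lower. Oprm1, the mu opioid receptor gene, was at 101 and 93.3 CPM, 0.11 (-0.21 to 0.43), and Calcrl, which serves the receptor of the peptide CGRP, at 33.1 and 48.9 CPM, -0.56 (-1.11 to -0.05). None of the 5 serotonin receptor genes measured was 2-fold apart, and their median was 0.12. Htr2c was at 383 and 354 CPM, 0.12 (-0.05 to 0.27), and Htr1f, which couples to Gi, at 192 and 310 CPM, -0.69 (-0.91 to -0.48), with the labelled nuclei lower. Of 17 genes of Gq and phospholipase C signalling, through which 5-HT2A acts, only Itpr2, an intracellular calcium release channel gene, was 2-fold apart, lower at -1.42 (-2.38 to -0.58), and the median was 0.05. Weighted by cluster Itpr2 stood at -0.23, under 2-fold. Of all genes measured, 0.264% were higher and 0.938% lower.

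In the remaining lists, 2 of 37 transcription factor genes of the subpallium and amygdala were 2-fold higher, Ebf1 and Isl1, and 6 were lower, Foxp2, Tshz1, Zeb2, Nfix, Nfia and St18, with a median of -0.12. Over all genes measured 0.264% were higher and 0.938% lower. Weighted by cluster the median of this list was 0.03, with Zeb2 at 0.18, Nfix at -0.02 and Tshz1 at -0.04. St18 remained past 2-fold at -1.16, while Foxp2 was at -0.49 and Nfia at -0.30. Of 17 genes that name CeA types, Ebf1 and Nefm were higher and Foxp2 and Dnah5 lower, with a median of -0.18. Prkcd was at 72.3 and 93.6 CPM, Il1rapl2 at 280 and 248 CPM, Tafa1 at 147 and 123 CPM, and Dlk1 at 23.5 and 15.9 CPM. Prkcd, Il1rapl2, Tafa1 and Dlk1 were all under 2-fold apart. Voltage-gated channel genes gave 0 of 38 past 2-fold with a median of 0.07, granin and secretory granule genes 0 of 12 with 0.08, monoamine and acetylcholine receptors 0 of 7 with 0.05, immediate-early genes 0 of 4 with -0.25, and interferon response genes 0 of 2.

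Whether nuclei with Htr2a RNA resemble the labelled ones can be tested in the other 4 libraries, which the label did not touch. Gad nuclei with at least 1 Htr2a UMI numbered 50 in fed replicate 1, 88 in fed replicate 2, 71 in fasted replicate 1 and 178 in fasted replicate 2. Their summed counts were compared with those of the other Gad nuclei of the same library by the quasi-likelihood test of edgeR with the library as a block. Of 12138 genes, 433 (3.57%) were higher and 290 (2.39%) lower at a Benjamini-Hochberg adjusted p under 0.05. Il1rapl2, which encodes an accessory protein of the interleukin-1 receptor family, rose in all 4 libraries, with a log2 ratio of 2.30 (SE 0.08, edgeR adjusted p = 8.47e-15). Nxph1, which encodes a neurexin ligand, rose by 2.66, Egfr by 2.97 and Col19a1 by 3.12 on the log2 scale. All 3 are leading genes of the basolateral interneuron-like cluster, and so is Il1rapl2. In these libraries the Htr2a level of that cluster was 57.6 ± 16.4 CPM. The CeM Il1rapl2/Tafa1-like cluster, led by Isl1, held 3.60 ± 1.11 CPM. Kit rose by 1.83 and Pde3a by 1.96, and Prkcd by 0.65.

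Ebf1 went the other way from the label. Its level was 113 CPM in nuclei with Htr2a RNA and 217 CPM in those without in fed replicate 1, 168 and 304 in fed replicate 2, 91.5 and 278 in fasted replicate 1, and 120 and 300 in fasted replicate 2. It was lower with Htr2a RNA in every library, with a log2 ratio of -1.12 (SE 0.09, edgeR adjusted p = 1.91e-08). Isl1 fell by 0.93, Vipr2 by 1.57, Dnah5 by 1.12, Tac2 by 1.06 and Vdr by 2.93 on the log2 scale, while Foxp2 rose by 0.73. Tac2 was nonetheless higher with Htr2a RNA in fed replicate 2, at 17.5 against 15.3 CPM, and Vdr in fasted replicate 1, at 5.84 against 3.32 CPM. Pdyn and Tac2 were the only 2 of 13 peptide genes tested that passed, both lower, against 2.39% of all genes, and Sst had a log2 ratio of 0.21 with an edgeR adjusted p of 0.739. Of the 18 genes higher by label, 3 were higher and 3 lower in this test, with a median log2 ratio of -0.04. Of the 64 lower by label, 9 were higher and 7 lower, with a median of -0.09. Over all genes 3.57% were higher and 2.39% lower, so that members of both lists passed more often than all genes did, in both directions. The median over all 12138 genes was 0.00. When Htr2a groups were compared within the same cluster, over 40 pairs of 14 clusters and 4348 genes, edgeR called 0 genes higher and 1 lower, the ribosomal gene Rps29, and 323 genes had an unadjusted p under 0.05. Each pair was 1 cluster of 1 library. Pairs of the same library are not independent, so this fit does not measure the spread between libraries alone.

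The same split was made inside the Htr2a-Cre library, with 208 Gad nuclei that held an Htr2a UMI. Vdr, Vipr2, Dnah5, Tac2 and Sst lead the clusters that were singled out above for their Htr2a level in this library, so that their values here restate it. Vdr had a log2 ratio over the 1057 nuclei without of 1.58 (counting interval 1.06 to 2.08), Tac2 1.57 (1.23 to 1.90), Sst 1.40 (1.15 to 1.65), Vipr2 1.40 (1.15 to 1.66) and Dnah5 0.73 (0.54 to 0.92). Isl1 stood at 0.49 (0.10 to 0.87), Pdyn at 0.87 (0.50 to 1.24) and Ebf1 at 0.11 (0.01 to 0.21). Vdr, Tac2, Vipr2, Dnah5, Isl1, Pdyn and Ebf1 all had the opposite sign in the fit over the other 4 libraries, where Pdyn fell by 0.91. Col19a1, Egfr, Nxph1, Il1rapl2 and Kit were higher with Htr2a RNA here too, at 2.36, 2.45, 1.74, 1.86 and 2.14. With 1 library on one side the difference was not tested.

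**Figure D5:**
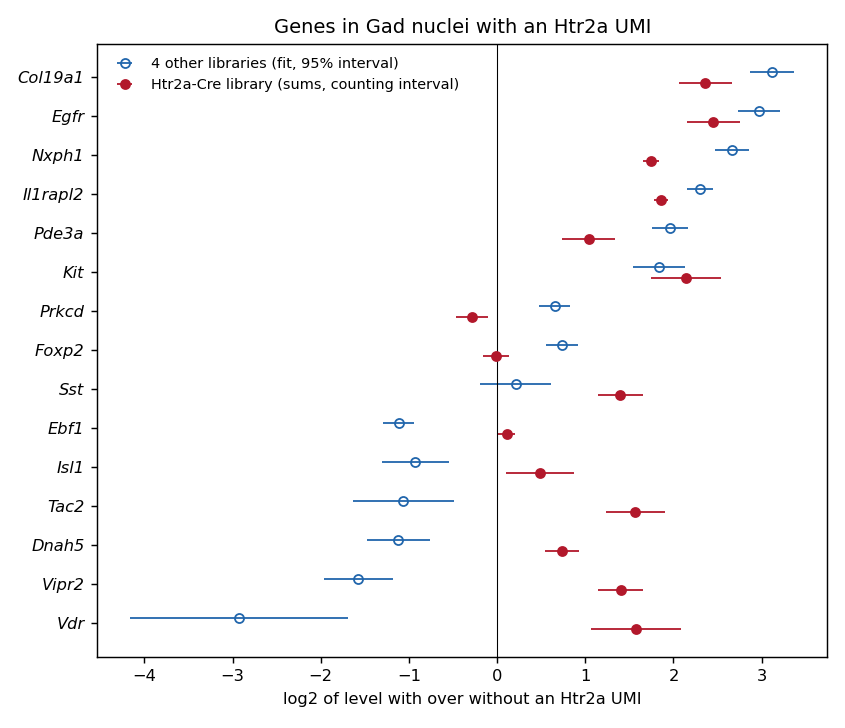
Log2 ratio (x) of 15 genes (y) in Gad nuclei with at least 1 Htr2a UMI over those with none, as open blue circles for the edgeR fit over the 4 other libraries with 95% intervals from the standard errors, and as filled red circles for sums over the Htr2a-Cre library with counting intervals. From Col19a1 to Kit both lie on the same side of 0, while Tac2, Dnah5, Vipr2 and Vdr lie below 0 in blue and above 0 in red.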

How the data were processed

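Nuclei were isolated from CeA and sequenced with 10x Chromium 3′ v3.1 chemistry. The deposited UMI counts per gene and barcode were made by the authors with Cell Ranger 5.0.0 according to the matrix headers and the study's methods, which name GRCm39 with Ensembl 105, intronic reads, and a reference to which Cre and mCherry had been added. The submitters' processing notes name Cell Ranger 2.1.1 and mm10 instead. Counts were used as deposited for 22532 genes.

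The Htr2a-Cre library kept 1369 of 1694 barcodes and 1265 Gad nuclei, and the other libraries 919, 792, 1363 and 1540 Gad nuclei. Their bounds on genes were read from a plot in the study, with a minimum of 2000 genes in fed replicate 2 and a maximum of 5000 in fed replicate 1. Scrublet in scanpy 1.11.5 marked 9 nuclei of the Htr2a-Cre library as doublets (0.657%), which were kept. Nuclei were normalized with sctransform 0.4.2 and clustered in Seurat 5.3.0 (2000 variable genes, 30 components, 20 neighbours, resolution 0.5 for all nuclei, then 0.8), and a cluster was named only from fixed marker lists.

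Counts of thinned nuclei were summed per group and given as CPM, with exact binomial or Poisson 95% intervals, which cover counting error only. A gene was measured at 20 CPM in the higher group and counted as apart at 2-fold. For Htr2a groups, sums per library were tested with edgeR 4.0.16 (R 4.3.3, TMM, filterByExpr, adjusted p of 0.05). DESeq2 1.42.0 was an alternative. Only libraries stand as replicates, and each is 1 pool of 2 mice. The fit within the same cluster is an exception, since it took each cluster of each library as a pair. The intervals were tried on simulated Poisson counts, which is the model they assume, and the test on simulated sums with 1 fixed dispersion. Neither simulation held UMIs clumped in a few nuclei or libraries that differ in composition. They therefore do not check the intervals or the test for such features of these data. Gene positions are those of the GRCm39 annotation. The genes named were the 12 with the highest and the 12 with the lowest ratio by label, list members past 2-fold, and a fixed set of peptides and markers. 1 gene that this rule names is not reported here. Other genes named, such as Chst9, Slc1a2, Oprm1, Htr2c and Htr1f, were chosen after their values were seen. The members and lists were chosen with earlier results of these data known. Alternatives were other cuts of mCherry and Gad, other bounds, depths and clusterings, doublets removed, weighting by cluster, nuclei with or without a Y-linked UMI, and, for the test, other tools, filters and each library left out.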

Additional observations from a re-analysis of the deposited data

Results flagged for a closer look

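Transcripts of Cre were counted in the Htr2a-Cre library alone, with 5 UMIs in its kept nuclei against 0 in the other 4 libraries. They are too few to compare with mCherry nucleus by nucleus.

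Among the 104 kept nuclei of the Htr2a-Cre library without a Gad UMI, 7 held at least 2 mCherry UMIs (6.73%, exact interval 2.75 to 13.4%), 4 held 1 and 93 held none, at a median depth of 6149.5 UMIs. All such nuclei of the other 4 libraries held 0.

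In 2 of 17 sets of 4 libraries checked for a value far from the rest, fasted replicate 2 stood apart with the highest Htr2a level. In the 8 clusters under 5 CPM it was at 2.99 CPM, with a gap of 0.855 of the whole range to the next library. In the cluster led by Pde1c and Tbc1d4 it was at 16.5 CPM, with a gap of 0.8837. Both gaps pass Dixon's 95% limit for 4 values, which chance passes in about 1 of 20 sets. In both cases the Htr2a-Cre library lay above fasted replicate 2, at 14.7 and 51.0 CPM.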

How the results depend on the processing

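The labelled share of 22.9% moved with its cut, to 32.3% at 1 mCherry UMI, 18.2% at 3, 12.8% at 5 and 20.4% with 1 UMI after thinning, and stayed within its interval under other bounds, without doublets and with at least 3 Gad UMIs. The log2 ratio of Htr2a by label ran from -0.54 to 0.26 over all 12 alternatives, inside its own interval. Labelled shares by cluster kept within their intervals at other resolutions and with log normalization, except that the cluster with the highest Prkcd level at a resolution of 1.2 gave 34.0%.

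The counts of genes past 2-fold by label depend strongly on the settings, and a gene at 20 CPM there rests on about 23 labelled UMIs. Against 18 higher and 64 lower they were 5 and 10 at 8000 UMIs, 6 and 15 without thinning, 6 and 35 with at least 1 mCherry UMI, 68 and 112 with at least 5, 81 and 125 in nuclei with a Y-linked UMI, 111 and 169 in those without, 64 and 185 at 10 CPM, and 3 and 17 at 50 CPM. Without doublets 11 were higher, and 32 were lower after weighting by cluster. Without glia-like clusters, an alternative chosen after seeing the data, 26 were lower. Another random draw gave 16 and 58, of which 6 and 28 were shared. Npsr1 alone of the 18 stayed past 2-fold in all 10 alternatives other than the CPM minimum and the split by Y-linked UMIs. Among the lower genes some turned sign, 6 of 64 after weighting (Tcf7l2 0.60, Daam2 0.57, Sparcl1 0.41, Zeb2 0.18, Gm973 0.15 and Gli3 0.09), and Zeb2 (0.029), Gm973 (0.47), Lama2 (0.47), Slc1a3 (0.60) and Mertk (0.30) without glia-like clusters.

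Alternatives for Htr2a in these clusters were all chosen after seeing the data. The Htr2a CPM in the Dnah5, Sst and Vdr clusters, other 4 libraries pooled, was 0.461, against 2.21 at a resolution of 0.5, 0 after thinning, 4.23 with the Dnah5 gate (22.9 in the Htr2a-Cre library), and 0.277 to 0.602 with each library left out.

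For the Htr2a groups, 433 higher and 290 lower genes became 256 and 145 after thinning and 277 higher with at least 2 Htr2a UMIs, while 163 were lower by DESeq2 and 507 without a filter. Leaving out each library gave 305 to 358 higher and 195 to 274 lower. Without the library as a replicate block, 145 were higher and 46 lower. Within the same cluster 0 were higher and 1 lower, from 4348 genes in place of 12138.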

Other observations

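Nuclei with an Htr2a UMI in the 4 libraries without the label also differed in other gene groups, by the edgeR quasi-likelihood test with the library as a block. Of 51 transcription factor genes of the subpallium and amygdala tested, 17 rose and 10 fell, against 3.57% and 2.39% of all genes. The fit within the same cluster, whose pairs are not independent replicates, called 0 genes higher. Glial genes moved with the split, with log2 ratios of -2.99 for C1qa, -2.81 for C1qb and -0.88 for Slc1a2, and their part in these values was not tested. Among those that rose, chosen after their values were seen, the log2 ratio was 1.90 (SE 0.11) for Sox6, 1.71 (SE 0.24) for Lhx6 and 1.64 (SE 0.38) for Nkx2-1, each higher in 4 of 4 libraries. Nkx2-1 was scarce, at most 6.12 CPM in any group. Maf rose by 2.67 (SE 0.16) and Prox1 by 2.35 (SE 0.22). Sox6 and Maf are leading genes of the basolateral interneuron-like cluster, and Sox6, Lhx6 and Nkx2-1 are on its marker list. Among those that fell was Zfhx3, by 0.72 (SE 0.06), lower in all 4 libraries.

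Of 20 genes of Gq and phospholipase C signalling tested, 4 rose and none fell, against 3.57% and 2.39% of all genes. Within the same cluster, again with pairs that are not independent replicates, 0 genes were called higher. Gna14, which encodes a G protein alpha subunit of the Gq class, rose by 3.84 (SE 0.28), Prkca by 0.74 (SE 0.08), Plcb4 by 0.70 (SE 0.08) and Prkcd by 0.65 (SE 0.09). Gna14 is also a leading gene of the basolateral interneuron-like cluster, and Prkcd leads the Prkcd cluster. Both clusters lie among those at 5 CPM or more of Htr2a in these libraries. By label, Plcb4 stood at a log2 ratio of -0.02, Prkca at 0.43 and Prkcd at -0.37, and Gna14 was under 20 CPM in both groups. Of 9 serotonin receptor genes tested Htr4 alone rose, by 0.33 (SE 0.08).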
